A study of Mus musculus with 18 samples.

Results

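The threonine, serine and folate-linked carbon enzymes described here are encoded by 10 genes, Tdh, Gcat, Gldc, Phgdh, Psat1, Psph, Shmt1, Shmt2, Mthfd1l and Mthfd2, chosen by name from the 53672 gene symbols counted in each library. All 10 were found under their current symbols and all 10 had enough counts to be tested. RNA had been sequenced from mouse E14TG2a embryonic stem cells (ESCs) that carry floxed alleles of Hdac1 and Hdac2, so that 4-hydroxytamoxifen (OHT) activates the deletion of both endogenous genes. Each of 3 lines also carried a stable piggyBac transgene encoding Flag-tagged HDAC1, as HDAC1-WT, HDAC1-E63R or HDAC1-Y48E. The study reports that E63R binds the NuRD and MiDAC complexes much less and keeps SIN3, MIER, RERE and some CoREST. Y48E is reported to keep SIN3 alone. Each line was sequenced untreated and after 1 µM OHT, which the labels give as 5 days of treatment while the study's methods describe a shorter pulse followed by further culture, with 3 libraries in each of 6 groups and 18 in all. The floxed alleles and the culture in serum with LIF are shared by all 6 groups. The comparisons ask how the level of each enzyme's RNA changed once the cells relied on the transgene, and whether the change differed between lines.

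Mouse ESCs are known for breaking down threonine in the mitochondrion. Threonine dehydrogenase (TDH) and glycine C-acetyltransferase (GCAT) act in sequence and yield glycine and acetyl-CoA, and the glycine cleavage system, with GLDC as its decarboxylase, passes a carbon of glycine to folate. PHGDH, PSAT1 and PSPH make serine from a glycolytic intermediate, SHMT1 in the cytosol and SHMT2 in the mitochondrion split serine into glycine and a folate-bound carbon, and MTHFD2 and MTHFD1L carry that carbon on to formate, which leaves the mitochondrion for the synthesis of purines, thymidylate and methyl groups.

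Counts on genes lay between 9019615 and 11454638 per library, and levels are given as CPM, the counts scaled to a common library total with TMM factors, which correct for RNA composition. The labels do not say that replicates came from separate cultures, so p-values measure the spread between these libraries. A gene was called if it moved by more than 2-fold with an adjusted p under 0.01 (edgeR's quasi-likelihood test, Benjamini-Hochberg adjustment over the 18791 tested genes). One library, the third of the untreated E63R cells, stood apart. Its counts differed from those of its 2 replicates by a chi-square per degree of freedom of 60.4 and 67.1, against 3.38 to 7.42 for the 16 other replicate pairs. Among genes with a mean of at least 5 CPM in these cells, the 3017 with the shortest summed exons (up to 2580 bases) had a median log2 level 0.53 higher there than in the other 2, and the 3015 with the longest (from 6659 bases) a median log2 difference of -0.50. Where leaving it out changes whether a member passes the adjusted p, the value without it is given too. The same holds for the OHT effect on each member in the E63R line. Other values can also shift without it. As a check of the targeted genes, Hdac2 had 195 ± 22.9 CPM in untreated and 124 ± 10.3 CPM in OHT-treated HDAC1-WT cells (SD, n = 3; log2 fold change -0.66, adjusted p = 0.00794), but 177 ± 29.4 and 153 ± 4.41 CPM in the E63R line (adjusted p = 0.184) and 151 ± 2.41 and 144 ± 6.66 CPM in the Y48E line (adjusted p = 0.642). Hdac1 stood between 168.6 and 210 CPM in all HDAC1-WT libraries and between 94.9 and 131 CPM in all libraries of the mutant lines. Counts over a whole gene include exons outside a deleted stretch, and counts of Hdac1 can include the transgene, so these values do not test the deletion. The OHT effect on Hdac2 differed from that in the HDAC1-WT line by 0.59 with Y48E (adjusted p = 0.00871). With E63R the difference of 0.45 did not pass (adjusted p = 0.0949). Counts per gene do not show which form of HDAC1 a line carries. Whether the mutant lines match their labels, on which every comparison between lines rests, cannot be settled from them.

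Positions were taken from GENCODE M21 on GRCm38 (mm10). Tdh lies on the minus strand at chr14:63492347-63509092, Gcat on the plus strand at chr15:79030874-79042531, Shmt2 on the minus strand at chr10:127517123-127522444, Mthfd2 on the minus strand at chr6:83305691-83325908 and Gldc on the minus strand at chr19:30098447-30175429. RefSeq promoter windows (GRCm38.p6, from 250 bases before to 50 bases after each start) were matched for 9 of the 10 genes, and Tdh was not matched. The 150 bases before the start are shown for Shmt2, Gcat and Mthfd2, which had the lowest levels relative to untreated cells after Tdh in the OHT-treated Y48E line, and for Gldc, which did not pass the test there. Capitals mark a CCAAT box (CCAAT or ATTGG) or a GC box (GGGCGG or CCGCCC), read on both strands; overlapping matches were kept.
Shmt2, minus strand of chr10:127522445-127522594: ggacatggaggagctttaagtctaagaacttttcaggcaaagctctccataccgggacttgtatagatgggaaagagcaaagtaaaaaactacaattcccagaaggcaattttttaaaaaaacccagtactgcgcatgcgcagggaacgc
Gcat, plus strand of chr15:79030724-79030873: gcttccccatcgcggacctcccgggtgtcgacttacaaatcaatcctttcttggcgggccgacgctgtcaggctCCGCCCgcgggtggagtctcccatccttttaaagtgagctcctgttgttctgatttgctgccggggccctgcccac
Mthfd2, minus strand of chr6:83317605-83317754: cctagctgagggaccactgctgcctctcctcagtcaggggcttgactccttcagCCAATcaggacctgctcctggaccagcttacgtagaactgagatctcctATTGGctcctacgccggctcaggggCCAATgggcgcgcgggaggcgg
Gldc, minus strand of chr19:30175442-30175591: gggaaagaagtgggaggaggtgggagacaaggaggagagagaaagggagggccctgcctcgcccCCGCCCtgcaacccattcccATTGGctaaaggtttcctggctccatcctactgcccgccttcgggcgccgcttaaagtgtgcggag
Over the whole windows, CCAAT was found in 6 of the 10 member promoters (Psat1 has 2 windows) against 37.4% of all 32851 promoters, and GGGCGG in 6 against 35.7%. The E-box CACGTG, found in 7.15% of all promoters, was present in 1, that of Gcat, 2 bases after its start and outside the stretch shown. The core of the element bound by ATF4 with C/EBP proteins, TGATGNAA, was found in 3.97% of all promoters and in none of these windows. The window of Shmt2 held none of these letters, whereas that of Gldc held both a CCAAT and a GC box. These matches are descriptions of the letters only.

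In untreated HDAC1-WT cells the levels per kilobase of exon were highest for Psat1 (92.4 ± 0.977 CPM per kb, SD, n = 3), Phgdh (88.4 ± 5.10 CPM per kb) and Shmt2 (82.7 ± 4.92 CPM per kb). Mthfd2 (41.9 ± 4.83 CPM per kb) and Tdh (38.5 ± 4.47 CPM per kb) followed, and the remaining members lay between 17.9 CPM per kb (Gldc) and 27.98 CPM per kb (Gcat). The enzymes of serine synthesis and the mitochondrial SHMT2 thus had the higher RNA levels per length in the line rescued with wild-type HDAC1, with the exception of Psph at 24.7 ± 3.41 CPM per kb.

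**Figure D1:**
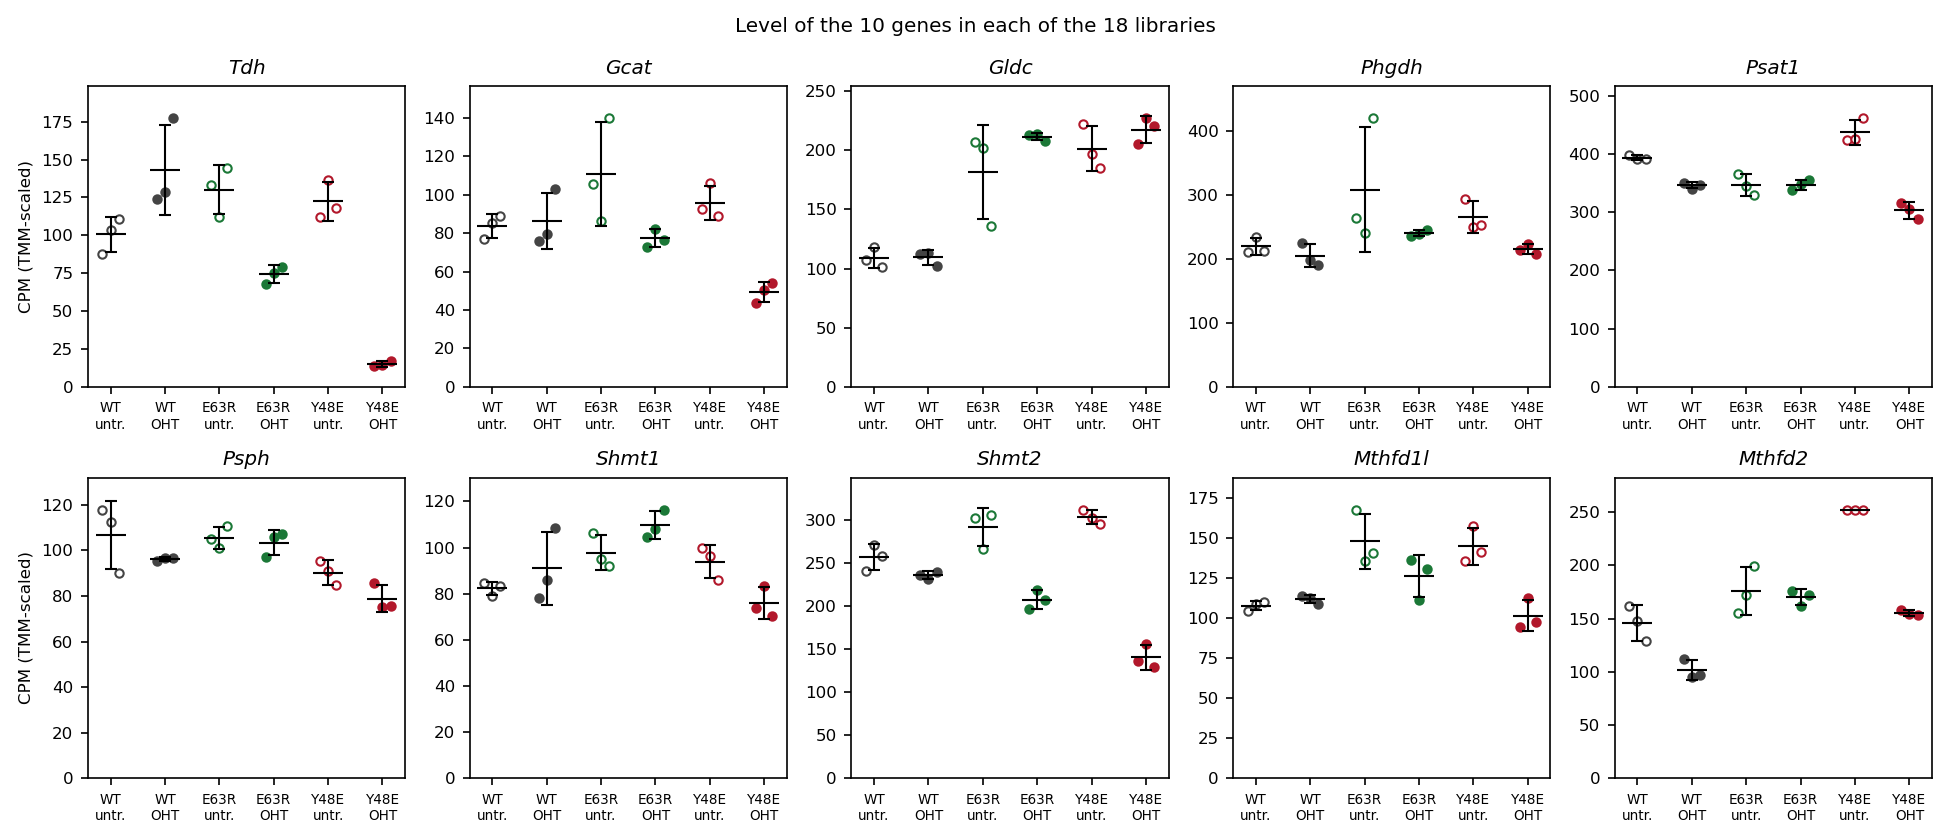
Level of each gene in each of the 18 libraries, in TMM-scaled CPM on an axis that starts at 0. Points are libraries (open, untreated; filled, OHT-treated), horizontal bars are group means and error bars are SDs over 3 libraries. Tdh stood between 13.6 and 17.2 CPM in the OHT-treated Y48E libraries and at 67.9 CPM or more in all others.

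Of the 10 genes, Tdh showed the largest change, and it was graded over the lines. In the Y48E line, Tdh stood at 112, 136.5 and 118 CPM without OHT and at 13.6, 14.7 and 17.2 CPM with OHT. The 2 groups did not overlap, and the treated cells had 12.4% of the untreated level (log2 fold change -3.01 ± 0.15 SE, adjusted p = 8.78e-13). This was the 128th lowest log2 fold change among the 18791 genes tested in that line. For the E63R line, the values of Tdh were 133, 112 and 144 CPM without OHT and 67.9, 75.5 and 79.4 CPM with OHT. These groups did not overlap either, and the fall was smaller, at -0.81 ± 0.14 (adjusted p = 0.000162), short of 2-fold; without the third untreated library it was -0.73 (adjusted p = 3.99e-05). With HDAC1-WT the values were 87.9, 103 and 111 CPM without and 124, 129 and 177 CPM with OHT. All 3 treated libraries were above the untreated ones, but the log2 fold change of 0.51 ± 0.14 did not pass the test over all 18 libraries (adjusted p = 0.127); in a model that left out the third untreated E63R library it did, at 0.51 (adjusted p = 0.00726). In order of mean level, Tdh was lowest in OHT-treated Y48E cells, then in OHT-treated E63R cells, then in untreated HDAC1-WT cells and untreated Y48E cells, with no overlap between neighbours in that order, whereas untreated Y48E, untreated E63R and OHT-treated HDAC1-WT cells overlapped.

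The OHT effect on Tdh differed between each pair of lines. It was 1.32 ± 0.19 lower on the log2 scale in the E63R than in the HDAC1-WT line (difference -1.32, adjusted p = 0.000152), and the difference between Y48E and HDAC1-WT was -3.52 ± 0.20 (adjusted p = 4.02e-11). Between the mutants themselves the difference was -2.20 ± 0.20 (adjusted p = 4.40e-07). Without the third untreated E63R library, the difference of E63R from HDAC1-WT was -1.24 (adjusted p = 4.05e-06) and that of Y48E from E63R was -2.28 (adjusted p = 2.30e-10).

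Gcat, the enzyme that acts after TDH, showed a smaller change. In the Y48E line it stood at 92.6, 106 and 89.0 CPM without OHT and at 43.5, 50.5 and 54.0 CPM with OHT, without overlap. The log2 fold change of -0.96 ± 0.15 passed the adjusted p (1.64e-05) but fell just short of 2-fold. The E63R libraries gave 106, 86.4 and 140 CPM without and 72.9, 82.2 and 76.7 CPM with OHT. That log2 fold change was -0.52 ± 0.15 (adjusted p = 0.0115) and -0.32 without the third untreated library (adjusted p = 0.0241), so it did not pass in either case. With HDAC1-WT the values of 76.7, 85.4 and 88.7 CPM without and 76.1, 79.5 and 103 CPM with OHT overlapped (0.04 ± 0.15, adjusted p = 0.969). The OHT effect on Gcat was lower in the Y48E than in the HDAC1-WT line by a called difference of -1.002 ± 0.21 (adjusted p = 0.00113). Between Y48E and E63R the difference was -0.44 ± 0.21 (adjusted p = 0.252), and -0.64 (adjusted p = 0.00166) without the third untreated E63R library.

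Tdh and Gcat are affected by other features to different degrees. One near-identical copy of Tdh was found, the processed pseudogene Gm13929 at chr2:112000180-112001304, which matched 97.1% of 1125 bases. It held 6 counts over all libraries against 17837 for Tdh, and adding them changed no call. Reads that align to more than 1 place are held in a separate entry of the files and were not recovered. The antisense gene Gm17232 shares 66 bases of exon with Tdh. It stood at 43.3 to 49.1 CPM in untreated and 6.21 to 7.44 CPM in OHT-treated Y48E cells (-2.76 ± 0.17, adjusted p = 7.96e-12), and at 46.3 to 62.4 and 34.9 to 39.8 CPM in the E63R line. Whether the counting used strand is not given in the sources used here, so reads of this pair in the shared bases cannot be told apart. Those bases are 2.52% of the exons of Tdh. Gcat shares 363 bases, 12.1% of its exons, with Galr3 on the same strand, and Galr3 had at most 6 counts in a library. Reads that fit both genes may have been left out of the counts of Gcat, which was not tested. Phgdh has 8 near-identical copies, and the 7 with an entry held 132 counts in all, 0.297% of those of Phgdh. Psph overlaps Cct6a on the opposite strand over 10.4% of its exons, and Cct6a was the more abundant of the pair, at 399 to 799 CPM, so the values of Psph are uncertain.

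Next, the enzymes that take a carbon from serine and glycine were compared. Shmt2 was the other called member in the Y48E line, with 312, 303 and 295.5 CPM without OHT and 137, 156 and 129 CPM with OHT. The treated libraries were all below the untreated ones, at 46.3% of their level (log2 fold change -1.11 ± 0.09, adjusted p = 2.57e-09). It fell short of 2-fold when scaled to library totals (-0.90) or set against OHT-treated HDAC1-WT cells (-0.75). With E63R, Shmt2 stood at 303, 266 and 306 CPM without and 197, 219 and 207 CPM with OHT, again without overlap. This fall of 0.49 on the log2 scale (-0.49 ± 0.09, adjusted p = 0.00050; -0.46 without the third untreated library, adjusted p = 1.76e-06) passed the adjusted p and not the 2-fold limit, and it missed the adjusted p in 3 of 14 alternatives (up to 0.148). With HDAC1-WT, 241, 272 and 259 CPM without and 236, 232 and 240.4 CPM with OHT gave -0.12 ± 0.09 (adjusted p = 0.752). The OHT effect on Shmt2 was lower with Y48E than with HDAC1-WT by -0.99 ± 0.13 (adjusted p = 8.11e-06) and lower than with E63R by -0.62 ± 0.13 (adjusted p = 0.00601). The latter missed the adjusted p in 12 of 19 alternatives (up to 0.0308) and was -0.66 without the third untreated E63R library (adjusted p = 1.87e-06). Between E63R and HDAC1-WT the difference was -0.37 ± 0.13 (adjusted p = 0.106; -0.33 without that library, adjusted p = 0.0175). The cytosolic Shmt1 did not pass in any line. It stood at 99.6, 96.2 and 86.0 CPM in untreated and 74.0, 83.5 and 70.2 CPM in OHT-treated Y48E cells, which did not overlap (-0.31 ± 0.12, adjusted p = 0.0362), and it passed in the model without the third untreated E63R library (-0.31, adjusted p = 0.00381). Its log2 fold change was 0.17 ± 0.12 with E63R (adjusted p = 0.320) and with HDAC1-WT 0.14 ± 0.12 (adjusted p = 0.772). Without the third untreated library the E63R value was 0.12 (adjusted p = 0.414).

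Gldc set itself apart by line rather than by OHT. It stood between 101.5 and 118 CPM in all 6 HDAC1-WT libraries and between 136 and 227 CPM in the 12 libraries of the mutant lines. OHT moved it by 0.00 ± 0.12 with HDAC1-WT (adjusted p = 1), 0.22 ± 0.12 with E63R (adjusted p = 0.199; 0.05 without the third untreated library, adjusted p = 0.714) and 0.11 ± 0.12 with Y48E (adjusted p = 0.486). Of the other parts of the glycine cleavage system, Amt, its aminomethyltransferase, fell in the Y48E line from a mean of 114 to 59.5 CPM (-0.93, adjusted p = 4.42e-07) and in the E63R line from 117 to 84.6 CPM (-0.47, adjusted p = 0.00293). Gcsh, the carrier protein, had log2 fold changes of 0.17 with E63R and 0.26 with Y48E, and Dld, the dihydrolipoamide dehydrogenase, -0.10 and 0.23, and none of these passed; without the third untreated E63R library Gcsh did pass with E63R, at 0.51 (adjusted p = 1.29e-05).

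The members Mthfd2 and Mthfd1l, of the mitochondrial folate route, fell in the Y48E line. They fell there from higher untreated means (252 and 145 CPM) than in HDAC1-WT cells (146 and 108 CPM). Their means in OHT-treated Y48E cells were 155 and 102 CPM. Mthfd2 stood at 252.0, 252.1 and 252.3 CPM without OHT and at 158, 155 and 153 CPM with OHT (-0.70 ± 0.10, adjusted p = 9.83e-06). With E63R, 155, 173 and 199.7 CPM without and 176, 162 and 173 CPM with OHT overlapped (-0.05 ± 0.10, adjusted p = 0.790; 0.05 without the third untreated library, adjusted p = 0.679). With HDAC1-WT it stood at 162, 147.5 and 129 CPM without and 112, 95.4 and 97.1 CPM with OHT. These groups did not overlap, and the log2 fold change of -0.53 ± 0.10 had an adjusted p of 0.0356, which became 4.89e-06 in the model without the third untreated E63R library. The OHT effect on Mthfd2 was thus lower with Y48E than with E63R (-0.65 ± 0.15, adjusted p = 0.00948; -0.76 without that library, adjusted p = 5.92e-07), which missed the adjusted p in 14 of 19 alternatives (up to 0.0320), and its difference from HDAC1-WT did not pass (-0.17 ± 0.15, adjusted p = 0.443). Because Mthfd2 was lowest in OHT-treated HDAC1-WT cells, setting the treated mutant lines against those cells turned its direction: it was then 0.61 ± 0.10 higher in Y48E (adjusted p = 4.82e-05) and 0.75 ± 0.10 higher in E63R (adjusted p = 8.31e-06). Mthfd1l stood at 136, 158 and 141.5 CPM in untreated and 94.5, 112.5 and 97.7 CPM in OHT-treated Y48E cells, without overlap (-0.51 ± 0.11, adjusted p = 0.000447). This missed the adjusted p when scaled to library totals (-0.31, adjusted p = 0.0369) and against OHT-treated HDAC1-WT cells (-0.14, adjusted p = 0.306). Its log2 fold changes of -0.23 ± 0.11 with E63R (adjusted p = 0.119) and 0.05 ± 0.11 with HDAC1-WT (adjusted p = 0.946) did not pass. Without the third untreated library the E63R value was -0.27 (adjusted p = 0.0198). The difference of Mthfd1l between Y48E and HDAC1-WT, -0.57 ± 0.15 (adjusted p = 0.00862), passed but missed the limit in 15 of 20 alternatives (up to 0.0839). In the model without the third untreated E63R library it was -0.57 (adjusted p = 8.17e-05).

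Of the enzymes of serine synthesis, Psat1 passed the adjusted p in the Y48E line. Psat1, the aminotransferase, stood at 424, 425.5 and 461 CPM in untreated and 316, 304.5 and 288 CPM in OHT-treated Y48E cells, without overlap (-0.53 ± 0.08, adjusted p = 2.43e-05; -0.19 against OHT-treated HDAC1-WT cells, adjusted p = 0.0721). Its log2 fold change was 0.00 ± 0.08 with E63R (adjusted p = 0.997; -0.04 without the third untreated library, adjusted p = 0.714) and -0.19 ± 0.08 with HDAC1-WT (adjusted p = 0.466). The difference between the mutants was -0.53 ± 0.12 (adjusted p = 0.00959; -0.49 without the third untreated E63R library, adjusted p = 1.95e-05), and it missed the limit in 15 of 19 alternatives (up to 0.0456). Phgdh, the first enzyme of the route, gave -0.30 ± 0.14 with Y48E (adjusted p = 0.0868), -0.36 ± 0.14 with E63R (adjusted p = 0.0637) and -0.10 ± 0.14 with HDAC1-WT (adjusted p = 0.908). Phgdh is the member on which the library that stands apart bears most, at 420.4 CPM there against 265 and 240.02 CPM in the other 2. Without it the E63R value was -0.07 (adjusted p = 0.518), and the Y48E value of -0.31 passed (adjusted p = 0.000127). Psph, the phosphatase of the last step, was lowest in the OHT-treated Y48E cells at 78.9 ± 6.10 CPM, and its log2 fold changes of -0.19 ± 0.11 with Y48E, -0.03 ± 0.11 with E63R (0.01 without the third untreated library) and -0.15 ± 0.11 with HDAC1-WT did not pass.

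**Figure D2:**
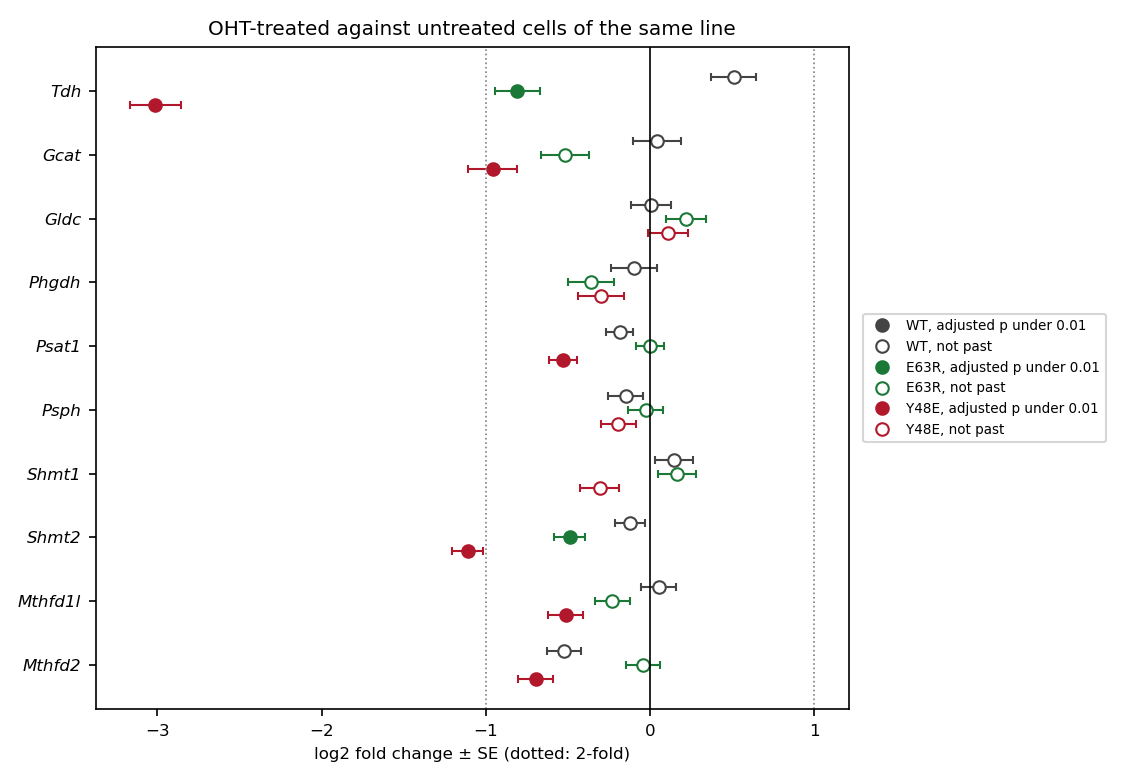
Log2 fold change of OHT-treated against untreated cells of the same line for each gene, with bars of 1 SE; filled points had an adjusted p under 0.01 and dotted lines mark a 2-fold change. Tdh lies at -3.01, -0.81 and 0.51 in the Y48E, E63R and HDAC1-WT lines, and Shmt2 at -1.11, -0.49 and -0.12.

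Counted over the 10 genes, 2 were called lower by OHT in the Y48E line, where 5.85% of all tested genes were called lower. With the adjusted p alone, 6 were lower (Tdh, Gcat, Psat1, Shmt2, Mthfd1l and Mthfd2) and none higher, beside 14.7% of all tested genes lower and 16.2% higher. The median log2 fold change of the members was -0.52 and that of all tested genes 0.05. No member was called in the E63R line, where 1.18% of all tested genes were called lower and 4.75% higher, and Tdh and Shmt2 were lower by the adjusted p alone, beside 6.89% of all genes. At an unadjusted p under 0.05, edgeR gave 5 lower and 0 higher there, beside 17.1% and 19.5% of all tested genes. In the HDAC1-WT line none was called, beside 0.0532% of all tested genes in either direction, and at an unadjusted p under 0.05 edgeR gave 1 higher and 2 lower, beside 5.59% and 4.23%; the DESeq2 test also called none in these lines. The effects in the 3 lines rest on separate untreated cells. The members, and the gene lists described further on, were chosen with earlier results of these data known. Their counts beside the shares of all tested genes are therefore descriptions only.

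Differences between lines were called for Tdh in each pair of lines and for Gcat between Y48E and HDAC1-WT. For Y48E against HDAC1-WT the 2 called members compare with 4% of all tested genes called lower, and by the adjusted p alone 4 were lower (Tdh, Gcat, Shmt2 and Mthfd1l), beside 6.87%. In the model without the third untreated E63R library Psat1 (-0.35, adjusted p = 0.000436) and Shmt1 (-0.46, adjusted p = 0.00440) passed as well. For Y48E against E63R the 1 called member compares with 1.02%, and by the adjusted p alone 4 were lower (Tdh, Psat1, Shmt2 and Mthfd2), beside 1.65%. For E63R against HDAC1-WT, Tdh was the 1 called, beside 0.442%, and without that library Mthfd2 passed the adjusted p too, at 0.58 (adjusted p = 0.000112). These 3 differences share libraries with each other.

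**Figure D3:**
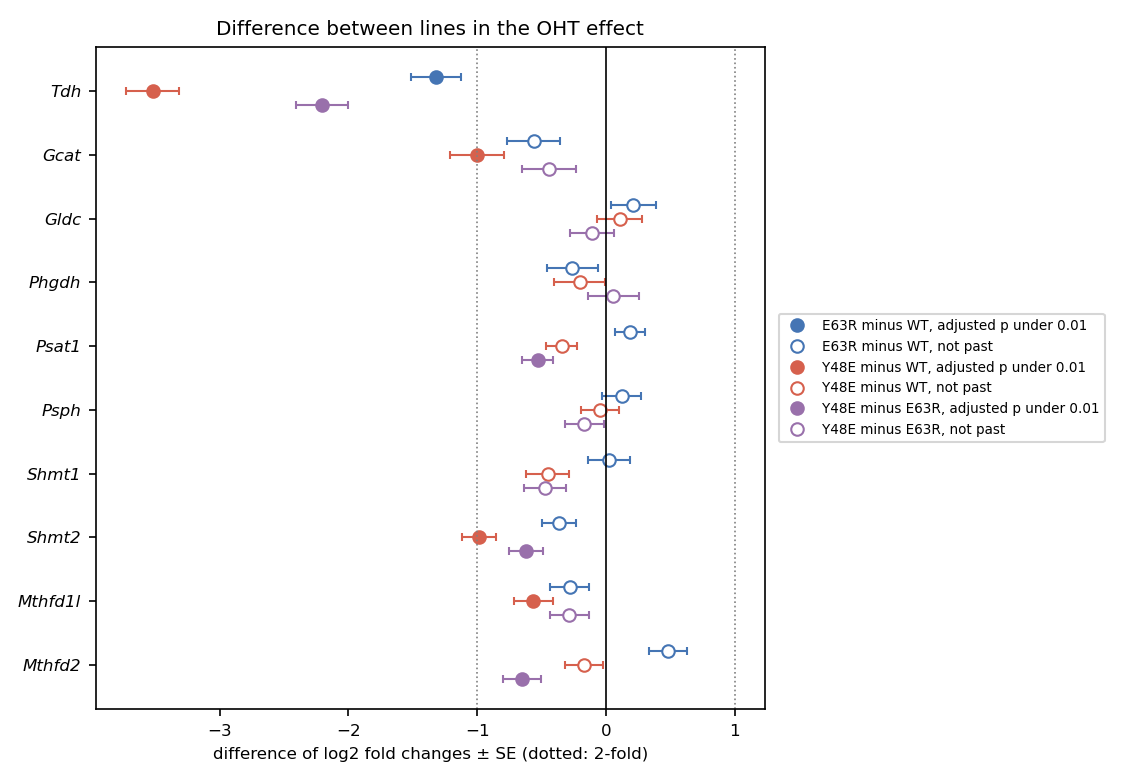
Difference between lines in the log2 fold change with OHT for each gene, with bars of 1 SE; filled points had an adjusted p under 0.01 and dotted lines mark a 2-fold difference. Tdh is at -1.32, -3.52 and -2.20, and Gcat reaches -1.002 between Y48E and HDAC1-WT.

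The untreated lines, which still had endogenous Hdac1 and Hdac2 besides the transgene, also differed. None of the members was called, beside 7.67% of all tested genes for E63R and 5.66% for Y48E in either direction, but with the adjusted p alone 2 were higher in untreated E63R than in untreated HDAC1-WT cells (beside 9.13% of all tested genes) and 3 in untreated Y48E cells (beside 6.52%). At an unadjusted p under 0.05, edgeR gave 7 higher and 1 lower in E63R, beside 19.8% and 18.4% of all tested genes, and 4 higher and 1 lower in Y48E, beside 16.5% and 16%; the DESeq2 test called none. Gldc stood at 108, 118 and 101.5 CPM in untreated HDAC1-WT cells, at 207, 202 and 136 CPM in untreated E63R cells and at 222, 197 and 185 CPM in untreated Y48E cells. Neither mutant group overlapped the wild-type group, with log2 differences of 0.74 ± 0.12 for E63R (adjusted p = 8.45e-05; 0.91 without the third library, adjusted p = 2.48e-14; adjusted p = 0.0301 in a model of these 6 libraries alone) and 0.89 ± 0.12 for Y48E (adjusted p = 1.29e-05). Mthfd1l was higher by 0.46 ± 0.11 in E63R (adjusted p = 0.00246; 0.50 without the third library, adjusted p = 1.32e-05) and by 0.43 ± 0.11 in Y48E (adjusted p = 0.00551). These missed the adjusted p in 4 of 13 alternatives (up to 0.0617) and in 7 of 14 (up to 0.0423). Mthfd2 was 0.79 ± 0.10 higher in untreated Y48E than in untreated HDAC1-WT cells (adjusted p = 6.77e-06) and 0.52 ± 0.10 higher than in untreated E63R cells (adjusted p = 0.00355; 0.62 without the third library, adjusted p = 7.60e-08; up to 0.249, and missed in 5 of 13 alternatives), which was the 1 member past the adjusted p between the untreated mutants, beside 0.873% of all tested genes. Without the third E63R library Psat1 passed there too (0.30, adjusted p = 0.000863), as did Phgdh (0.28, adjusted p = 0.000922) and Shmt2 (0.24, adjusted p = 0.00310) in untreated Y48E against HDAC1-WT cells. No member was called between the untreated mutants, beside 0.985%, and at an unadjusted p under 0.05 edgeR gave 2 higher and 1 lower, beside 8.96% and 9.4%. Tdh did not pass, at 0.37 ± 0.14 in E63R (adjusted p = 0.0478; 0.29 without the third library, adjusted p = 0.0786) and 0.28 ± 0.14 in Y48E (adjusted p = 0.158). Each line is a separate transgenic population, so the mutation and other differences between the lines cannot be told apart.

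**Figure D4:**
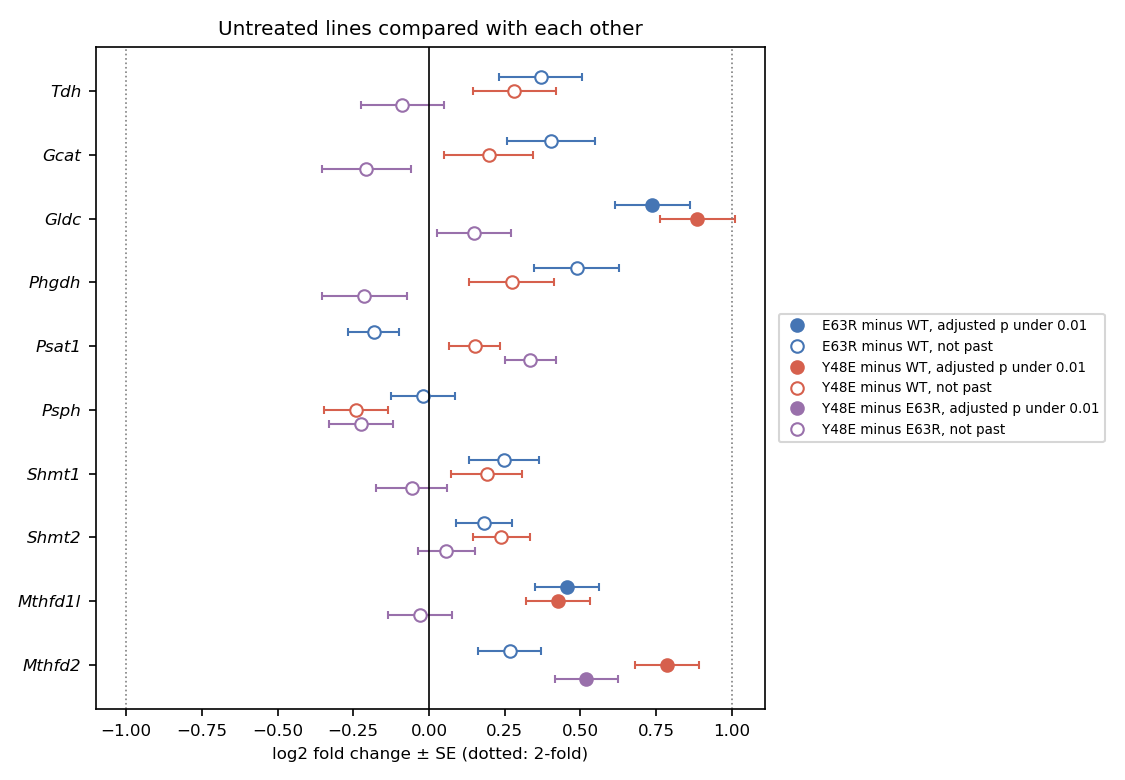
Log2 difference between untreated lines for each gene, with bars of 1 SE; filled points had an adjusted p under 0.01 and dotted lines mark a 2-fold difference. Gldc lies at 0.74 and 0.89 in the E63R and Y48E lines against HDAC1-WT, and Mthfd2 at 0.79 in Y48E.

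The wider pathway was described from 54 further genes for glycine cleavage, the folate cycle, the methionine cycle and transsulfuration, breakdown of serine and threonine, transport, and purine synthesis, all of which were tested. OHT called 7 of them lower and 3 higher in the Y48E line, beside 5.85% and 10.8% of all tested genes, with a median log2 fold change of -0.12 beside 0.05 for all tested genes. With the adjusted p alone, 16 were lower and 3 higher, beside 14.7% and 16.2%. For E63R, 1 was called lower and 0 higher, beside 1.18% and 4.75%, and 8 were lower and 3 higher with the adjusted p alone, beside 6.89% and 7.54% (median -0.02). Without the third untreated E63R library 1 was called lower and 1 higher, with 11 lower and 7 higher by the adjusted p alone, and in the HDAC1-WT line none passed, with a median of -0.02. Slc1a5, a transporter of neutral amino acids, was the gene called in both mutant lines, from a mean of 190.0 to 38.6 CPM with Y48E (-2.30 ± 0.12, adjusted p = 1.48e-12) and from 134 to 66.9 CPM with E63R (-1.01 ± 0.12, adjusted p = 1.47e-06). Among 13 genes of the methionine cycle and transsulfuration, 3 were called lower with Y48E. They were Cth and Cbs, which make cysteine from homocysteine and serine, and Mtrr, which reactivates methionine synthase. Cth fell from 88.5 to 16.7 CPM (-2.41 ± 0.16, adjusted p = 7.21e-11), Cbs from 32.5 to 11.9 CPM and Mtrr from 60.8 to 29.6 CPM. Untreated and treated HDAC1-WT cells had means of 77.5 and 50.1 CPM for Cth, 12.2 and 13.1 CPM for Cbs, and 84.5 and 67.5 CPM for Mtrr. In treated Y48E cells Cbs was thus near its HDAC1-WT level, and Cth and Mtrr were below theirs. Of 8 genes of purine synthesis, which takes up both glycine and folate-bound carbons, 3 were called lower with Y48E, namely Paics (767 to 325 CPM), Gart (389 to 187 CPM) and Impdh2 (459 to 223 CPM), and the remaining 5 were not called. Among 15 genes of the folate cycle, 3 were called higher and none lower. Mthfd2l, a paralogue of Mthfd2, rose from 2.03 to 8.88 CPM (2.12 ± 0.49, adjusted p = 0.00125), Dmgdh, a dimethylglycine dehydrogenase, from 0.836 to 5.73 CPM, and Mthfsd from 11.4 to 24.1 CPM. These 3 genes stayed low beside Mthfd2 at 155 CPM in the same cells, although counts are not per length here. Their untreated Y48E means were below those of untreated HDAC1-WT cells (Mthfd2l 4.90, Dmgdh 4.54 and Mthfsd 20.4 CPM). In OHT-treated HDAC1-WT cells Mthfd2l stood at 2.40, Dmgdh at 4.89 and Mthfsd at 22.9 CPM. None of 3 genes for the breakdown of serine and threonine other than by TDH passed.

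**Figure D5:**
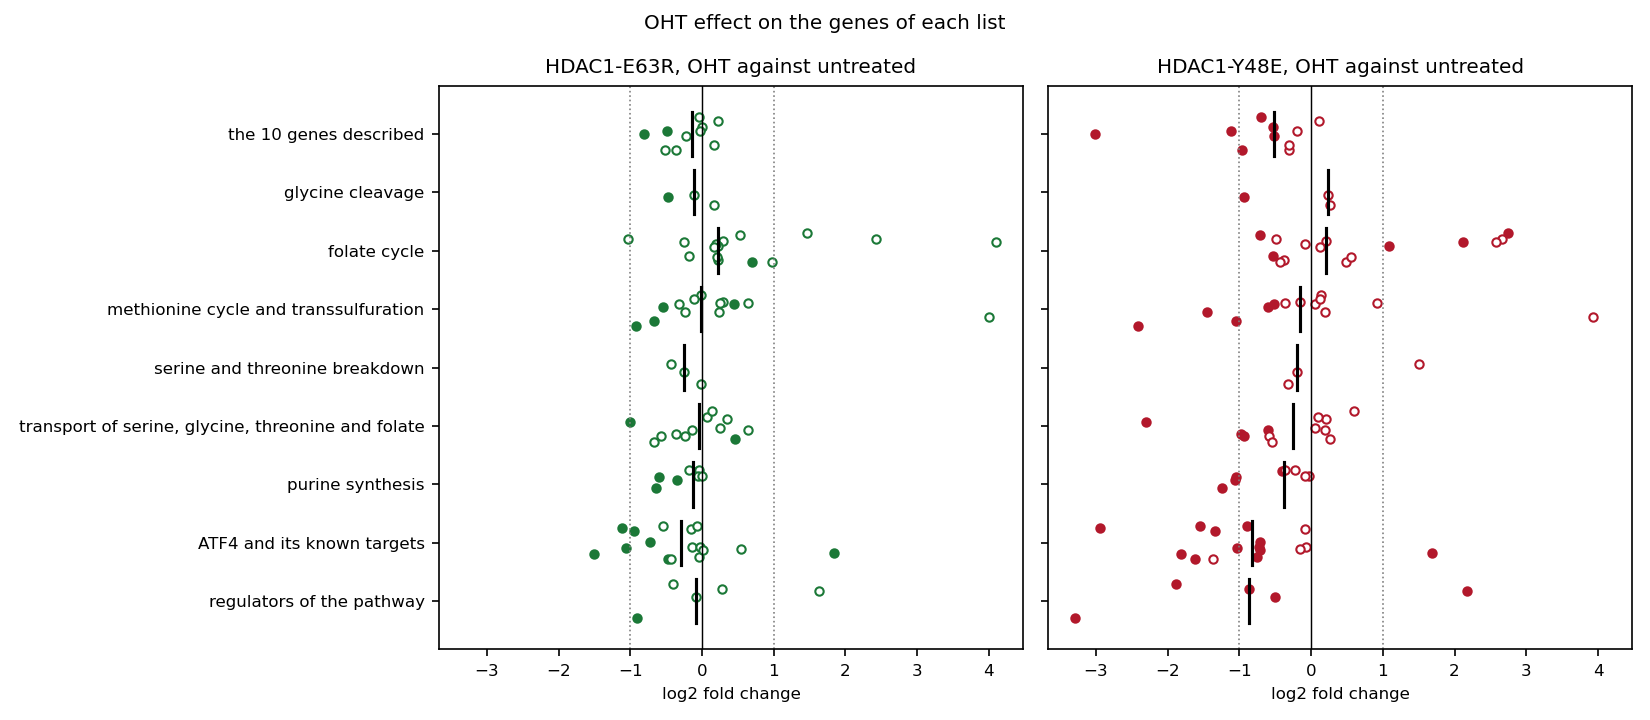
Log2 fold change after OHT in the E63R (left) and Y48E (right) lines for every tested gene of each list; filled points had an adjusted p under 0.01, dotted lines mark a 2-fold change and black bars are list medians. The median of the 10 genes described lies at -0.14 in E63R and -0.52 in Y48E, and those of ATF4 and its targets at -0.29 and -0.82.

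Regulators known to act on these genes were read from the same table. ATF4, a transcription factor of the amino acid response, is known to drive the serine synthesis genes, Shmt2 and Mthfd2. Of 16 genes listed as ATF4 and its known targets besides the members, 6 were called lower and 1 higher in the Y48E line, beside 5.85% and 10.8% of all tested genes, and 3 lower and 1 higher in the E63R line, beside 1.18% and 4.75%; their medians were -0.82 and -0.29. Without the third untreated E63R library 2 were called lower there, and the fall of Nupr1 was -0.69, short of 2-fold. Nupr1 fell from 114 to 14.8 CPM with Y48E and from 66.7 to 30.8 CPM with E63R. Ddit3 fell from 96.7 to 27.4 CPM and from 75.1 to 26.5 CPM, Trib3 from 64.5 to 22.1 CPM and Pck2 from 76.4 to 24.8 CPM with Y48E, and Atf3 was the gene that rose, from 14.7 to 47.2 CPM with Y48E and from 4.52 to 16.3 CPM with E63R. Atf4 itself had log2 fold changes of -0.71 (adjusted p = 0.000132) and -0.72 (adjusted p = 0.000326), and Asns, the asparagine synthetase gene that ATF4 is known to activate, -0.07 (adjusted p = 0.628) and -0.14 (adjusted p = 0.380), in the Y48E and E63R lines. Without the third untreated E63R library the E63R values were -0.46 for Atf4 (adjusted p = 1.02e-06) and 0.03 for Asns (adjusted p = 0.756). Of 5 further regulators, 2 were called lower and 1 higher with Y48E. Prdm14 fell from 34.2 to 3.46 CPM (-3.30 ± 0.20, adjusted p = 7.50e-12) and Nr5a2 from 44.0 to 11.9 CPM (-1.89 ± 0.18, adjusted p = 1.46e-08), both transcription factors of naive ESCs, while Myc rose from 1.20 to 5.49 CPM (2.17 ± 0.61, adjusted p = 0.00561). None of the 5 was called with E63R, but Prdm14 was lower there by the adjusted p (-0.91, adjusted p = 0.000535). Myc also rose in the other 2 lines, without passing. It went from 0.391 to 1.79 CPM with HDAC1-WT (2.19, adjusted p = 0.247) and from 2.93 to 9.17 CPM with E63R (1.63, adjusted p = 0.0327).

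Levels of genes that mark cell identity also changed. The summed level of 8 ESC genes (Pou5f1, Sox2, Nanog, Esrrb, Zfp42, Dppa5a, Utf1 and Tdgf1) was 5989 to 6083 CPM in untreated and 2595 to 2745 CPM in OHT-treated Y48E libraries, 5517 to 8991 and 4711 to 5066 CPM in the E63R line, and 7803 to 7970 and 8177 to 9014 CPM in the HDAC1-WT line. None of the 8 was at 0 in any group, and all 8 fell with Y48E by the adjusted p, 6 of them by more than 2-fold. The untreated E63R libraries include the one that stood apart. With E63R none of the 8 was called, and 4 were lower by the adjusted p, beside 6.89% of all tested genes. Their median log2 fold change was -0.31. Without that library 4 were lower and 1, Zfp42, was higher (0.32, adjusted p = 0.00456), with a median of -0.19. The summed levels of 8 markers each were 79.6 to 93.5 and 101 to 106 CPM for trophoblast (Tpbpa without a count in both), 221 to 241 and 235 to 257 CPM for primitive endoderm, and 23.0 to 27.7 and 81.9 to 95.5 CPM for fibroblasts (Lum without a count in both) in untreated and OHT-treated Y48E cells. In the E63R line the same sums were 82.4 to 90.4 and 155 to 165 CPM, 143 to 180 and 170.3 to 181 CPM, and 13.2 to 19.3 and 48.8 to 56.5 CPM, and in the HDAC1-WT line 202 to 217 and 216 to 248 CPM, 455 to 468 and 376 to 459 CPM, and 24.5 to 25.7 and 35.9 to 41.9 CPM. Of 7 tested trophoblast markers, OHT called 3 higher and 1 lower with Y48E, beside 10.8% and 5.85% of all tested genes. With E63R it called 2 higher and 1 lower, beside 4.75% and 1.18%. Of 7 tested primitive endoderm markers, 1 was called higher in each mutant line. Without the third untreated E63R library, E63R gave 2 higher and 0 lower for trophoblast and none for primitive endoderm. None of either list was called with HDAC1-WT. Only 3 of the 8 fibroblast markers had enough counts to be tested. OHT called 2 of them higher in each mutant line, beside 4.75% of all tested genes with E63R and 10.8% with Y48E. The other 5, Col3a1, Lum, Dcn, Postn and Twist2, had no count in OHT-treated HDAC1-WT cells. The fibroblast sums thus rest on few genes and do not identify a cell type. The part of these shifts in the values of Tdh and the other members was not tested, and in bulk RNA fewer cells that express a gene and less of its RNA per cell cannot be told apart.

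Genes whose log2 level followed that of Tdh most closely over the 18 libraries were Upp1, Gm17232, Tcl1, Vegfa and Ubtf, with Pearson r of 0.990, 0.985, 0.976, 0.976 and 0.971 among 16683 other genes of at least 1 CPM on average. Upp1, a uridine phosphorylase gene, stood at a mean of 414 CPM in untreated and 73.9 CPM in OHT-treated Y48E cells, at 473 and 270.1 CPM with E63R, and at 379 and 429 CPM with HDAC1-WT. Among the members, r with Tdh was 0.905 for Shmt2 and 0.901 for Gcat, which ranked 169th and 195th. For Shmt2 the closest were Mmp11, Bckdha, Zmynd8, Chchd10 and Echs1, with r between 0.969 and 0.976. The 18 libraries share 6 groups and the fall in the treated Y48E cells, so these values describe likeness of pattern and no more.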

How the data were processed

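RNA-seq of 18 libraries in 6 groups was analysed. The authors mapped paired-end reads to mm10 and deposited raw counts per gene symbol; the submitters' processing notes name HISAT2 2.1.0, SAMtools 1.9 and HTSeq, and the annotation and use of strand are not given in the sources used here. The 5 entries naming no gene held 59.4% to 61.2% of each library and were left out. Genes were filtered with filterByExpr by group, leaving 18791, and scaled with TMM factors (edgeR 4.0.16, R 4.3.3). One quasi-likelihood fit, with 1 mean for each group, held all 18 libraries, with Benjamini-Hochberg adjustment within each of 9 comparisons; called genes had an adjusted p under 0.01 and more than a 2-fold change. Differences between lines were tested as interactions. Each SE was the log2 fold change divided by the root of F. The members and lists were chosen with earlier results of these data known. All members were named; of the other lists, up to 5 genes called in a mutant line with a mean of at least 1 CPM, and single enzymes that define a step. Genes most like Tdh, and like the other member with the largest change, were ranked by Pearson r (prior count 2). Near-identical copies matched at least 95% over 300 bases (blastn 2.17.0). The procedure was tested on simulated counts. Alternatives were other scaling (RLE factors, library totals), no filter, a replicate block, the DESeq2 1.42.0 Wald test, glmTreat, other limits, copies added, OHT-treated HDAC1-WT cells as reference, only the libraries compared and each library left out. Library totals and the model without the third untreated E63R library were added after the data were seen.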

Additional observations from a re-analysis of the deposited data

Results flagged for a closer look

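The OHT effect differed between lines, by an interaction test past an adjusted p of 0.01 and a 2-fold difference, in 4 cases. For Tdh the difference was -1.32 ± 0.19 on the log2 scale between E63R and HDAC1-WT (SE, adjusted p = 0.000152), -3.52 ± 0.20 between Y48E and HDAC1-WT (adjusted p = 4.02e-11) and -2.20 ± 0.20 between Y48E and E63R (adjusted p = 4.40e-07). For Gcat it was -1.002 ± 0.21 between Y48E and HDAC1-WT (adjusted p = 0.00113). All 3 treated libraries of the Y48E line were below its 3 untreated libraries for both genes, and the range of Gcat's difference over the alternatives, from -1.09 to -0.84, crosses the 2-fold limit.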

How the results depend on the processing

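The number of called members held within 1.5 times the value reported in all comparisons and settings except these. Without the fold limit it was 2 instead of 0 for OHT in E63R, 6 instead of 2 in Y48E, 4 instead of 2 for Y48E minus HDAC1-WT, 4 instead of 1 for Y48E minus E63R, and 2, 3 and 1 instead of 0 for untreated E63R minus HDAC1-WT, Y48E minus HDAC1-WT and Y48E minus E63R. With glmTreat it was 1 for OHT in Y48E, 0 for E63R minus HDAC1-WT and 1 for Y48E minus HDAC1-WT. With OHT-treated HDAC1-WT cells as reference it was 1 for Y48E, as with library totals, since Shmt2 then fell short of 2-fold (-0.75 and -0.90). For Y48E minus HDAC1-WT it was 1 with library totals, RLE factors and DESeq2, where Gcat fell short (-0.84, -0.96 and -0.96). Leaving out 1 library gave 2 to 3 for OHT in Y48E and 1 to 3 for Y48E minus HDAC1-WT, the 1 arising without untreated HDAC1-WT replicate 1, OHT-treated HDAC1-WT replicate 3, untreated Y48E replicate 2 or OHT-treated Y48E replicate 1. Against OHT-treated HDAC1-WT cells, Mthfd2 turned from -0.05 to 0.75 in E63R and from -0.70 to 0.61 in Y48E. Tdh in Y48E ranged from -3.24 to -2.81 and passed under every alternative run. In E63R, Tdh and Shmt2 missed the adjusted p in a model of only the libraries compared (0.0127 and 0.0463), and Shmt2 also with library totals (0.0260) and against OHT-treated HDAC1-WT cells (0.148). The differences for Psat1, Shmt2 and Mthfd2 between Y48E and E63R, and for Mthfd1l between Y48E and HDAC1-WT, missed the adjusted p in most alternatives; the cause was not tested. Library totals moved the median of all genes to 0.23 in E63R and 0.25 in Y48E, and the share of called genes that were higher from 80.2% to 93.1% and from 64.8% to 79.2%; signs then turned for Psph in both mutant lines and in the difference of Y48E from HDAC1-WT, for Mthfd2 in E63R (-0.05 to 0.17), and for Shmt1 and Mthfd1l between the untreated mutants, none of which passed. A model of only the libraries compared called 371 instead of 1114 genes in E63R. With a replicate block the number of called members was 2 for OHT in Y48E and 0 in E63R, as without it. Psat1, Shmt2 and Mthfd2 between Y48E and E63R and Mthfd1l between Y48E and HDAC1-WT missed the adjusted p under it, and Gcat with OHT in E63R passed. Libraries with the same number correlated between -0.05 and 0.04 in their deviations from the group means. No shared effect of the numbers was thus seen, which cannot exclude that libraries of the same number were cultured or handled together. A change below 2-fold could not be called at any depth, and the SE of the members' OHT effects was 0.08 to 0.15 with these 3 libraries per group.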
